A study of Homo sapiens with 42 samples.

Results

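Mediator is the multi-subunit complex that links transcription factors bound at enhancers and promoters to RNA polymerase II. The genes described here are the protein-coding genes whose symbol is MED followed by a number, with any letter ending, together with CDK8, CDK19 and CCNC. The rule gives 33 genes, and 31 of them are among the 34318 genes with transcripts matched to the annotation used here. No transcript was matched to MED18 or MED22, so their expression was not analysed. MED18 is still among the genes whose promoters were searched. RNA-seq was made from 42 libraries in 14 groups of 3, from cultures in which RNA polymerase III or its regulators were perturbed. HEK293T, a human embryonic kidney line, was transfected for 48 h. One HEK293T experiment used an antisense oligonucleotide (ASO) against POLR3G, a polymerase III subunit, at 200 nM, beside a scrambled ASO at 200 nM. Another used siRNA against POLR3G at 200 nM beside a control siRNA at 200 nM. In a further experiment siRNAs named siE4, siE6 and siE8 against POLR3GL, the paralogue of POLR3G, were used at 25 nM and share 1 control siRNA group at 25 nM. The last HEK293T experiment overexpressed MAF1, a repressor of polymerase III, beside eGFP. THP-1, a human monocytic leukaemia line, received DMSO, the polymerase III inhibitor ML-60218 at 25 uM for 4 h, the translation inhibitor cycloheximide (CHX) at 10 ug/ml for 4.5 h, or CHX with ML-60218. The labels do not say that the 3 libraries of a group came from separate cultures, so p-values measure the spread between these libraries, which may be technical.

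Mediator is built of a head and a middle module that contact the polymerase, a tail module that contacts activators, and the scaffold subunit MED14, which joins them. A separable kinase module, made of CDK8 or its paralogue CDK19, cyclin C (CCNC), MED12 or MED12L, and MED13 or MED13L, binds the core reversibly through MED13 and hinders its contact with the polymerase. MED26 is a subunit found on the form of Mediator that lacks the kinase module and that recruits elongation factors.

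The targeted genes followed the labels in the HEK293T experiments. POLR3G went from 24.1 to 8.57 CPM (read counts scaled to library size) on the mean with the ASO, and from 34.4 to 14.5 CPM with its siRNA. POLR3GL went from 34.1 CPM to 2.89, 3.36 and 2.61 CPM with siE4, siE6 and siE8, and MAF1 from 41.3 to 3090 CPM when overexpressed. The POLR3G siRNA libraries also held less MAF1 RNA, 49.96 CPM in the control and 9.84 CPM in the treated libraries, and the POLR3GL siRNA libraries held less POLR3G RNA, 31.6 CPM in the control and 16.5 to 21.4 CPM in the treated means. POLR3GL in turn was at 31.7 CPM with the scrambled ASO and 23.3 CPM with the POLR3G ASO, and at 32.0 CPM and 21.5 CPM in the control and POLR3G siRNA libraries, with no overlap in either. The part of these changes in the Mediator results was not tested. Libraries held 32705684 to 52568088 reads. The summed level of 7 monocytic markers was 1.61 to 15.8 CPM in HEK293T and 3565 to 5895 CPM in THP-1, and 6 HEK293T markers summed to 349 to 1534 CPM and to 1.80 to 7.08 CPM in the same lines. Both lists moved with some treatments. The monocytic markers summed to 4.75 to 5.68 CPM with the scrambled ASO and 14.5 to 15.8 CPM with the POLR3G ASO, where ITGAM went from 0.328 to 5.16 CPM on the mean, 5 of the 7 markers had every treated library above every control library, and PTPRC was at 0 in both groups. In THP-1 they summed to 5338 to 5895 CPM with DMSO and 3635 to 3895 CPM with CHX. Every CHX library lay above every DMSO library for 4 of these 7 markers and below for 3, so the sum does not describe each marker. The HEK293T markers summed to 890 to 968 CPM with the 25 nM control siRNA and 349 to 387 CPM with siE6, and to 560 to 575 CPM and 1413 to 1534 CPM in the control and POLR3G siRNA libraries. With siE6, every treated library lay above every control library for 2 of these 6 markers and below for 3. With the POLR3G siRNA the counts were 4 and 2. Their part in the results was not tested. In such bulk RNA, fewer cells of a type and less RNA per cell cannot be told apart.

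Compared per transcript length, in TPM (a level scaled to transcript length and library size), the Mediator genes were at unequal levels in control cells. Over the 12 HEK293T control libraries the highest median TPM levels were those of MED24, 95.2, CCNC, 79.4, and MED6, 51.2. The lowest were MED12L, 1.75, MED26, 6.70, and MED12, 8.23. In the DMSO libraries of THP-1, CCNC was at 94.0, MED8 at 92.8 and MED4 at 66.7 TPM, and MED12L at 0.05. The library ranges of the lines were apart for 22 of the 31 genes, 8 higher and 14 lower in THP-1. Of all genes compared, the ranges of 70.5% were apart, 22.9% higher and 47.6% lower in THP-1. The lines were handled in separate experiments, so line and experiment cannot be told apart. CDK8 and CDK19 were near each other in HEK293T, with medians of 20.8 and 19.8 TPM over the control libraries. CDK19 made 53.7%, 47.9%, 41.4% and 51.6% of their summed TPM in the scrambled ASO, 200 nM control siRNA, 25 nM control siRNA and eGFP groups. In DMSO-treated THP-1 its share was 81.0% ± 0.5 (SD, n = 3).

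Promoter sequences from RefSeq (assembly GRCh38.p14; 250 bases before to 50 bases after each annotated start) were found for 25 of the 33 genes. The 5 shown belong to genes that carry the results below. CCNC and MED4 rose with every siRNA that targeted a polymerase III subunit. MED12 fell with several agents, and MED26 rose most with the ASO. MED24 fell with siE6 and with other agents. Each is written 5′ to 3′ on the strand of its gene in lower case. Capitals mark matches, on either strand, to CCAAT (the NF-Y box), the NRF1 site, GC-rich letters with 1 open base, or AANATGGCG (the YY1 site).
CCNC promoter, chr6:99568765-99569064, minus strand: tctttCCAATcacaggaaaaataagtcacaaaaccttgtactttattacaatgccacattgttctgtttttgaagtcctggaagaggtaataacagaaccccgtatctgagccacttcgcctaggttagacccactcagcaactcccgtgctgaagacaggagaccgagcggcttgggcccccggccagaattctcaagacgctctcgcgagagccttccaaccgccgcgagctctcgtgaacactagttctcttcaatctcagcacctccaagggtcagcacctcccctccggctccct
MED4 promoter, chr13:48095055-48095354, minus strand: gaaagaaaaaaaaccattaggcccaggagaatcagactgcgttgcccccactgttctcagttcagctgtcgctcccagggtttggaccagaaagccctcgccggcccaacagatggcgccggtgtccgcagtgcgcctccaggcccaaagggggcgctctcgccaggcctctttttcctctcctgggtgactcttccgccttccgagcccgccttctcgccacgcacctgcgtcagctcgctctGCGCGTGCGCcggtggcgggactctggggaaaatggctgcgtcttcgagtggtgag
MED12 promoter, chrX:71118346-71118645, plus strand: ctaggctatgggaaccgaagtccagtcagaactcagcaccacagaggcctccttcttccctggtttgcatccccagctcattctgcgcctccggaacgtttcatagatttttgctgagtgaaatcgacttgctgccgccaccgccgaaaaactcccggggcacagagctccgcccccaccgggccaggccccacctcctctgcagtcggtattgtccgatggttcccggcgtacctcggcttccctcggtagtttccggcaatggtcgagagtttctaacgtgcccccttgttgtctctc
MED26 promoter, chr19:16628155-16628454, minus strand: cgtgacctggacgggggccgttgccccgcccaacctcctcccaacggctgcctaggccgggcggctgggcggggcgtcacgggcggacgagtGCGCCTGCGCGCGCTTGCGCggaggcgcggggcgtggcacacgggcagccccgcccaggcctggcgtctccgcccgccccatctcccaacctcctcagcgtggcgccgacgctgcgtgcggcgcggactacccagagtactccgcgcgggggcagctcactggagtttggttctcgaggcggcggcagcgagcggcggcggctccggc
MED24 promoter, chr17:40054359-40054658, minus strand: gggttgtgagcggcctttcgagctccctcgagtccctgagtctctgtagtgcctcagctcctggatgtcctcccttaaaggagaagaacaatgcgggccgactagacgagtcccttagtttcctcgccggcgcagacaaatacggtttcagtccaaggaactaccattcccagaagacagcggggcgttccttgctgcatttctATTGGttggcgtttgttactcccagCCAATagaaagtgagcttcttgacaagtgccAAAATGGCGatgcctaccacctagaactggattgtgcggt
The CCNC window shown holds CCAAT, the MED4 and MED26 windows the NRF1 letters, the MED24 window CCAAT and the YY1 letters, and the MED12 window none of the motifs searched. The YY1 letters stood in the windows of 6 of the 25 genes, 24%, against 3.85% of 27305 genes with a window, and the NRF1 letters in 5, 20%, against 6.98%. The ETS letters CCGGAAG stood in 7, 28.0%, against 12.2%. CCAAT was as frequent in Mediator genes as in all genes, 40.0% and 39.7%. TATAAA stood in 8.0% and 14.0%, and the cyclic AMP response element TGACGTCA in 4.0% and 2.25%. None of the 6 kinase module genes with a window held the ETS, NRF1 or YY1 letters, while 4 of them held CCAAT. For 4 genes RefSeq gives several windows, 3 at most, and a gene was counted when any of them held the letters. The other CCNC window holds none of the motifs, and CDK19 holds CCAAT in 1 of its 3 windows. For 7 of the 24 genes with reads, among them MED12, MED12L, MED25 and CDK19, the start of the transcript that held most reads lies outside every window, and for MED25, counted for the YY1 and NRF1 letters, it lies 16769 bases from the RefSeq start. A match or its absence thus describes these letters only.

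Most Mediator genes changed in the HEK293T knockdowns, as most genes did, and in opposite directions within the complex. A gene was called at an adjusted p under 0.05 by edgeR's quasi-likelihood test, with p adjusted by Benjamini and Hochberg's method across every gene in the fit. The POLR3G ASO raised 10 and lowered 11 of the 31 genes, where 34.4% of all genes tested rose and 34.1% fell. The POLR3G siRNA raised 15 and lowered 11 (36.8% and 38.1% of all genes; 74.9% in either direction). With siE4, 13 rose and 10 fell (26.2% and 28.7%; 54.9% in either direction). With siE6, 18 rose and 5 fell (31.2% and 31.8%; 63% in either direction). With siE8, 16 rose and 4 fell (29.1% and 28.6%; 57.7% in either direction). The median log2 fold change over the 31 genes was 0.02 with the ASO, -0.02 with the POLR3G siRNA, and 0.11, 0.22 and 0.14 with siE4, siE6 and siE8, where the medians over all genes lay between -0.02 and 0.00. The share of Mediator genes called, 67.7% with the ASO, was near the 68.5% of all genes called there. The siE4, siE6 and siE8 comparisons share their control libraries.

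MAF1 overexpression changed no Mediator gene by edgeR's test (0 of 31, where 0.0386% of all genes were called, 0.0322% higher and 0.00643% lower); 3 had an unadjusted p under 0.05, and DESeq2 called 1, MED12. ML-60218 in THP-1 raised 1 gene and lowered 1, where 8.48% of all genes rose and 7.05% fell, 15.5% together; the count was 5 without DMSO replicate 3 and 1 without DMSO replicate 2 or ML-60218 replicate 2 or 3. Under CHX, ML-60218 raised 2 and lowered 0 (8.75% and 7.75%; 16.5% in either direction), a count that was 4 without CHX with ML-60218 replicate 1 and 1 without CHX replicate 1 or 3. CHX itself raised 17 and lowered 7 (33.5% and 32.5%; 66% in either direction), with a median log2 fold change of 0.12 over the 31 genes and -0.01 over all genes. ML-60218 and CHX were each compared with the same DMSO libraries.

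**Figure D1:**
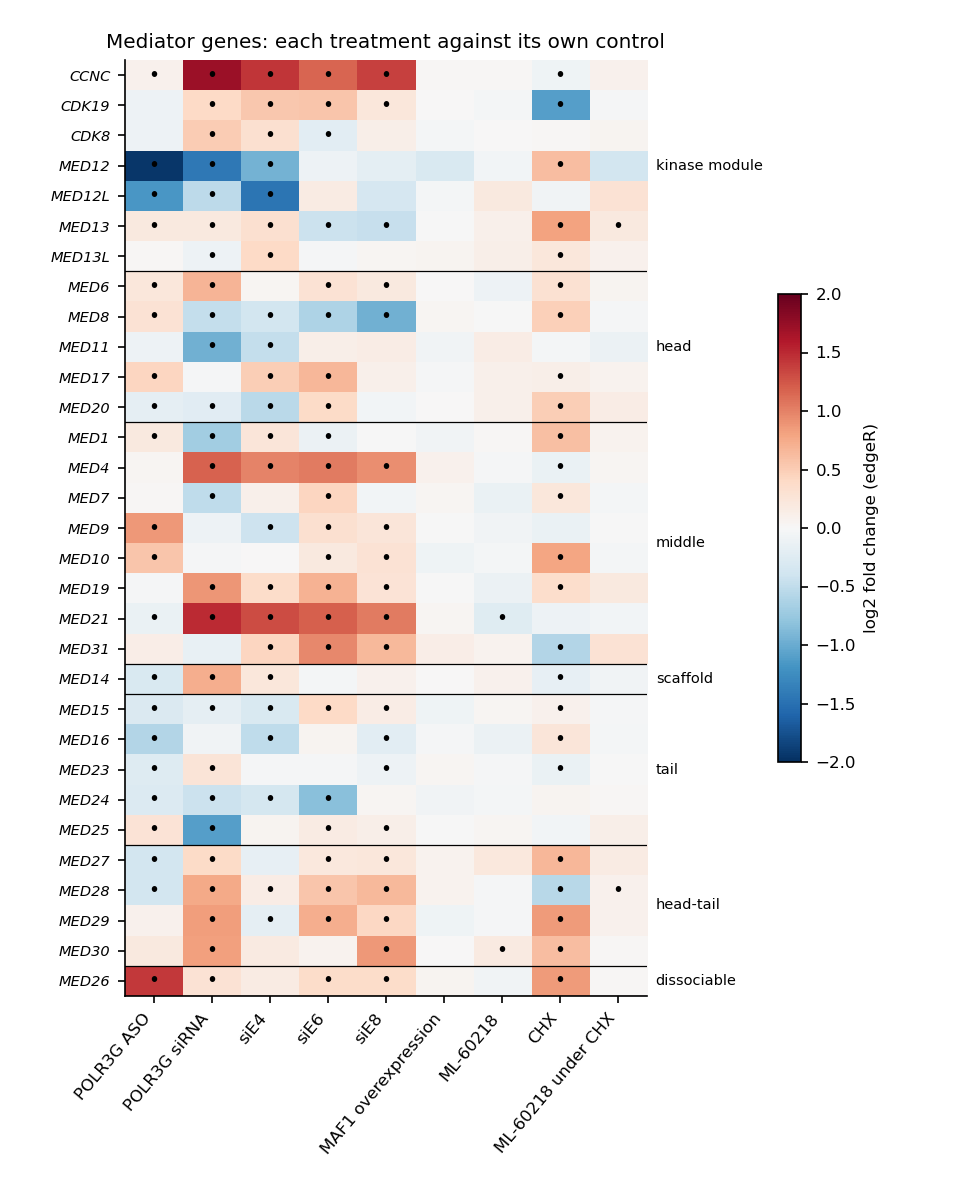
Log2 fold change of each of the 31 Mediator genes (rows, grouped by module) in each of the 9 treatment comparisons (columns), with calls marked. Several genes rise in every siRNA column, while MED12 is lowest with the POLR3G ASO at -1.95 and the MAF1 and ML-60218 columns stay pale.

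Among kinase module genes, MED12, whose product activates CDK8 through cyclin C, had the largest fall with both POLR3G agents. The scrambled ASO libraries held 39.0, 39.6 and 33.1 CPM and the POLR3G ASO libraries 10.7, 9.46 and 8.77 CPM. The groups lay far apart, and the fall was 3.86-fold (log2 fold change -1.95, SE 0.09, adjusted p 2.93e-07). With the POLR3G siRNA, levels of 51.0, 46.6 and 44.9 CPM in the control stood against 16.7, 16.6 and 19.7 CPM, a fall of 2.69-fold (log2 fold change -1.43, SE 0.07, adjusted p 1.75e-07). Here too every treated library was below every control library. Of the POLR3GL siRNAs, siE4 lowered MED12, from 40.8, 43.6 and 38.6 CPM to 18.1, 20.002 and 25.4 CPM (log2 fold change -0.95, SE 0.11, adjusted p 7.91e-06). With siE6, MED12 was at 36.6, 38.5 and 39.0 CPM and with siE8 at 40.4, 32.0 and 34.9 CPM, with adjusted p of 0.394 and 0.133. MED12 stood at 32.0, 29.3 and 29.5 CPM with eGFP and 25.3, 25.0 and 23.0 CPM with MAF1, where the adjusted p was 0.243 by edgeR and 0.0171 by DESeq2.

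MED12L, the paralogue of MED12 at a lower level, fell in the same 3 comparisons as MED12, with less precision. The scrambled ASO libraries held 19.5, 12.7 and 12.7 CPM and the POLR3G ASO libraries 7.52, 7.09 and 5.44 CPM (log2 fold change -1.16, SE 0.18, adjusted p 0.000415). With siE4 it went from 9.15, 11.8 and 6.96 CPM to 2.31, 6.01 and 1.85 CPM (log2 fold change -1.46, SE 0.36, adjusted p 0.00385), with the treated libraries below the controls but spread widely among themselves. With the POLR3G siRNA, 14.8, 13.002 and 18.2 CPM stood against 11.9, 7.53 and 12.5 CPM. All treated libraries were below all control libraries there, but the call (log2 fold change -0.53, adjusted p 0.0315) was lost when either control replicate 1 or 3 or siRNA replicate 2 was left out, with adjusted p up to 0.114, and was not made by DESeq2 (adjusted p 0.076).

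CCNC, the cyclin that partners CDK8 and CDK19, moved the other way with every siRNA. It went from 66.0, 66.0 and 66.3 CPM to 215, 220.4 and 213 CPM with the POLR3G siRNA, a rise of 3.27-fold (log2 fold change 1.71, SE 0.02, adjusted p 9.52e-11). Against 65.6, 66.7 and 72.0 CPM in the shared 25 nM control, CCNC was at 185, 187 and 177 CPM with siE4, at 154, 156 and 148 CPM with siE6 and at 165, 181 and 184 CPM with siE8. No treated library overlapped the controls, and the rises were 2.68-fold, 2.24-fold and 2.59-fold. With the POLR3G ASO it was at 126, 129 and 129.5 CPM in the control and 132, 138 and 137 CPM in the treated libraries, a log2 fold change of 0.09 (adjusted p 0.0167) that lost its call without scrambled ASO replicate 1 or POLR3G ASO replicate 2 or 3 (adjusted p up to 0.0786), and on protein-coding transcripts only (adjusted p 0.223). The share of CCNC reads on CCNC-201, a transcript annotated as a target of nonsense-mediated decay, which is the pathway that degrades messages with early stop codons, was 1.42%, 1.63% and 1.92% in the scrambled ASO libraries and 7.48%, 11.3% and 10.9% in the POLR3G ASO libraries.

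The kinases themselves moved less. CDK8 rose with the POLR3G siRNA, from 40.7, 37.2 and 35.5 CPM to 53.1, 55.2 and 53.2 CPM (log2 fold change 0.51, adjusted p 1.18e-05). It rose with siE4, from 42.1, 46.8 and 46.6 CPM to 57.8, 57.9 and 52.9 CPM (log2 fold change 0.32), and fell with siE6, to 39.6, 39.1 and 38.9 CPM (-0.20). CDK8 levels thus moved in opposite directions with siRNAs to the same gene. CDK19 went from 22.6, 25.3 and 23.8 CPM to 31.4, 31.1 and 32.1 CPM with the POLR3G siRNA (log2 fold change 0.40), and from 22.6, 23.0 and 23.5 CPM to 34.3, 32.1 and 34.0 CPM with siE4 (0.54), 34.0, 32.4 and 35.3 CPM with siE6 (0.56) and 29.3, 26.3 and 24.9 CPM with siE8 (0.22). This direction changed with the handling of transcripts. With an offset for transcript length the log2 fold change was -0.06 with the POLR3G siRNA and -0.33 with siE4 and with siE8 (edgeR's adjusted p 0.00228 and 0.00205), and with protein-coding transcripts only it was -0.13 with siE6, where 1 transcript of CDK19 without a coding annotation held 39.3% of CDK19 reads against 21.5% in the control.

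MED13 and MED13L, which anchor the kinase module to the core, differed among the agents. MED13 rose a little with the ASO, from 186, 178 and 189 CPM to 209, 216 and 209 CPM (log2 fold change 0.20, adjusted p 0.000205), and with the POLR3G siRNA, from 149, 140.2 and 136 CPM to 158, 159 and 167 CPM (0.19, adjusted p 0.00147). In the POLR3GL experiment the control libraries held 129.7, 117 and 134 CPM. MED13 rose to 156, 159.8 and 161 CPM with siE4 (log2 fold change 0.33) and fell to 93.7, 91.8 and 98.0 CPM with siE6 (-0.43) and to 99.5, 88.9 and 88.2 CPM with siE8 (-0.46). Every siE4 library was above the controls and every siE6 and siE8 library below them. Its paralogue MED13L rose with siE4, from 113, 106 and 113 CPM to 143, 146 and 147 CPM (0.40). With the POLR3G siRNA, 127, 123 and 122 CPM stood against 112, 113 and 123 CPM, ranges that overlap, and the call (-0.10, adjusted p 0.0405) was lost without control replicate 1, 2 or 3 or siRNA replicate 1 or 2 (adjusted p up to 0.187), and was not made by DESeq2 (adjusted p 0.0667).

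**Figure D2:**
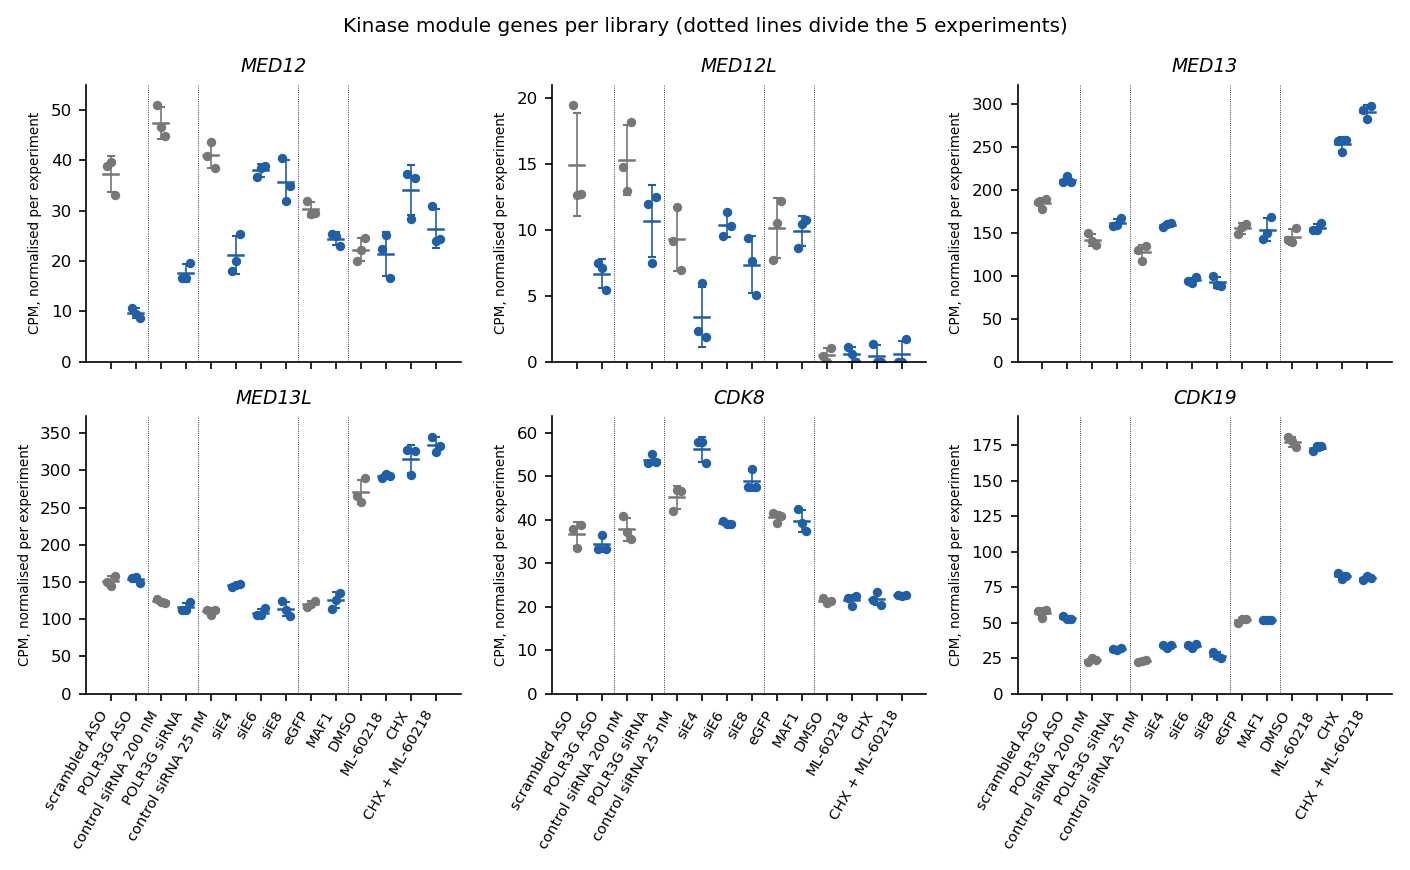
Levels in CPM (vertical axes, scaled within each experiment) of 6 kinase module genes in every library of the 14 groups; points are libraries, lines and bars the mean ± SD, grey the control groups. MED12 is lower with the POLR3G ASO, the POLR3G siRNA and siE4, and CDK19 in THP-1 is at 174 to 181 CPM with DMSO and at 80.8 to 85.4 CPM with CHX.

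Of the 7 kinase module genes, 2 rose and 2 fell with the ASO, 4 rose and 3 fell with the POLR3G siRNA, 5 rose and 2 fell with siE4, 2 and 2 with siE6, and 2 and 1 with siE8. Of the 24 core genes, 8 rose and 9 fell with the ASO, 11 and 8 with the POLR3G siRNA, 8 and 8 with siE4, 16 and 3 with siE6, and 14 and 3 with siE8. In the same order, 34.4%, 36.8%, 26.2%, 31.2% and 29.1% of all genes rose and 34.1%, 38.1%, 28.7%, 31.8% and 28.6% fell. The mean log2 CPM of the kinase module minus that of the core summarises the 2 sets of genes. With the ASO it went from 0.82 ± 0.08 (SD, n = 3) to 0.32 ± 0.07, a difference of -0.50 with no overlap of libraries. The summed CPM of the modules did not move with it: kinase module genes summed to 609 CPM in the control and 605 CPM with the ASO, and core genes to 1256 CPM in both. The difference was -0.010 by summed CPM, -0.30 by the median gene and -0.18 on log2(TPM + 1). With siE6 the difference was -0.14, also with no overlap, but -0.035 by summed CPM, -0.74 by the median gene, -0.23 on protein-coding transcripts and 0.040 on log2(TPM + 1), where its sign turned. It was -0.03 with the POLR3G siRNA, 0.00 with siE4, -0.12 with siE8 and -0.04 with MAF1, each with overlapping libraries. In THP-1 the difference was 0.04 with ML-60218, -0.27 with CHX and -0.02 with ML-60218 under CHX. Libraries overlapped in each, and the SD within groups was 0.37, 0.39 and 0.42. With siE4 the summed CPM of the kinase module nevertheless went from 424 to 602, led by CCNC. The size of these differences depended on how genes were weighted. With siE8 and the POLR3G siRNA, where libraries overlapped, the sign did too, at 0.055 and 0.18 by summed CPM.

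**Figure D3:**
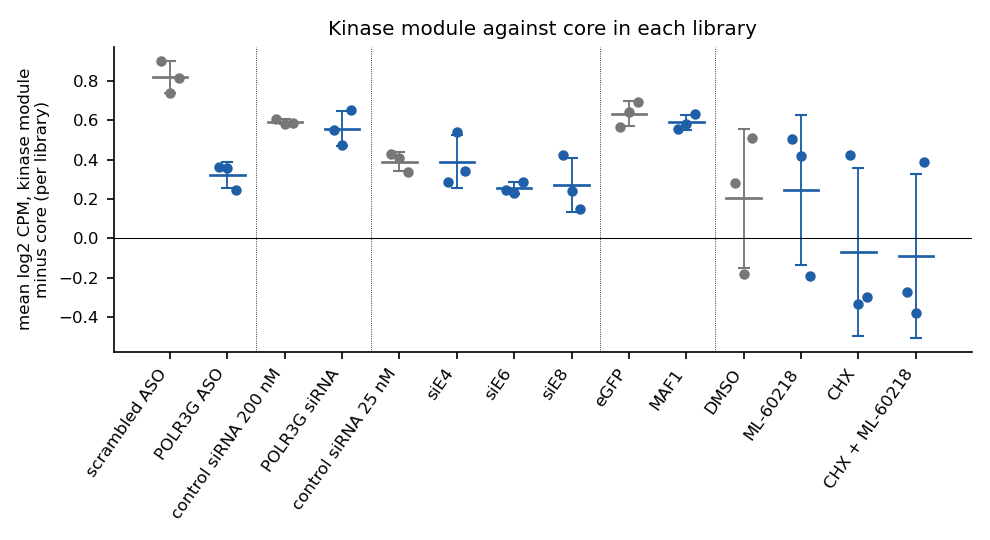
Mean log2 CPM of the 7 kinase module genes minus that of the 24 core genes in every library (points) and group. The POLR3G ASO libraries lie below the scrambled ASO libraries, with means of 0.32 and 0.82, while most other treated groups overlap their controls.

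In the middle module, MED21 and MED4 rose with every siRNA. MED21 went from 26.3, 27.2 and 28.3 CPM to 75.4, 76.4 and 79.2 CPM with the POLR3G siRNA, a rise of 2.82-fold (log2 fold change 1.496, SE 0.03, adjusted p 1.73e-09). In the POLR3GL experiment its control libraries held 25.3, 25.6 and 26.6 CPM, and it reached 66.5, 63.0 and 62.9 CPM with siE4, 59.6, 60.7 and 57.1 CPM with siE6, and 49.1, 54.95 and 55.3 CPM with siE8 (log2 fold changes 1.31, 1.19 and 1.04). MED4 went from 30.3, 30.1 and 28.6 CPM to 67.4, 68.1 and 65.2 CPM with the POLR3G siRNA, a rise of 2.26-fold (log2 fold change 1.17, adjusted p 5.04e-09). Against 28.3, 32.7 and 34.6 CPM it was at 66.1, 63.2 and 61.3 CPM with siE4, 63.0, 68.2 and 66.2 CPM with siE6, and 57.9, 62.5 and 62.0 CPM with siE8 (0.99, 1.04 and 0.93). The treated and control libraries did not overlap in any of these comparisons. With the ASO, MED21 went the other way, from 50.3, 53.5 and 50.9 CPM to 46.9, 47.2 and 47.3 CPM (log2 fold change -0.13, adjusted p 0.0065, up to 0.436 over the alternatives), and MED4, at 47.2 to 48.3 and 49.3 to 49.6 CPM, was not called. The largest rises of the middle module with the ASO were in MED9 and MED10. MED9 went from 26.3, 28.2 and 26.4 CPM to 49.5, 47.1 and 50.4 CPM (log2 fold change 0.86, adjusted p 4.09e-07), and MED10 from 21.0, 20.9 and 21.3 CPM to 30.2, 31.5 and 31.1 CPM (0.55, adjusted p 4.18e-06). The rise of MED9 lay on 1 transcript: MED9-205, which is not annotated as protein-coding, held 32.8% of MED9 reads in the control and 60.6% with the ASO, and on protein-coding transcripts only the log2 fold change was 0.13 (adjusted p 0.129). Of the 8 middle module genes, 3 rose and 1 fell with the ASO, 3 and 2 with the POLR3G siRNA, 5 and 1 with siE4, 7 and 1 with siE6, and 6 and 0 with siE8. In these comparisons 26.2% to 36.8% of all genes rose and 28.6% to 38.1% fell.

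In the head module, MED11, MED20 and MED8 were each among the 3 largest called falls of a comparison. MED11 fell with the POLR3G siRNA, from 18.8, 18.2 and 18.0 CPM to 10.3, 9.18 and 8.83 CPM (log2 fold change -0.95, SE 0.07, adjusted p 1.21e-06). MED20 fell with siE4, from 32.7, 36.1 and 35.6 CPM to 24.3, 23.5 and 23.8 CPM (-0.54, adjusted p 5.8e-05). MED8 fell with siE6 and siE8, from 40.5, 43.9 and 44.6 CPM to 27.5, 28.5 and 27.8 CPM and to 23.4, 21.1 and 21.5 CPM (-0.62 and -0.97). Each of these falls left the treated libraries clear of the controls. Over the 5 HEK293T knockdown comparisons, MED8 was called lower in 4 and higher in 1. Repeated calls over all genes were not counted. Of the 5 head genes measured, 3 rose and 1 fell with the ASO, 1 and 3 with the POLR3G siRNA, 1 and 3 with siE4, 3 and 1 with siE6, and 1 and 1 with siE8. The shares of all genes were 26.2% to 36.8% higher and 28.6% to 38.1% lower.

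In the tail module, which contacts activators, the largest fall was in MED16 with the ASO, in MED25 with the POLR3G siRNA and in MED24 with siE6. MED16 fell with the ASO, from 24.5, 23.6 and 24.2 CPM to 16.6, 16.4 and 15.1 CPM (log2 fold change -0.59, adjusted p 1.3e-05). MED25 fell with the POLR3G siRNA, from 45.1, 42.9 and 43.1 CPM to 20.7, 19.9 and 20.3 CPM (-1.11, SE 0.04, adjusted p 9.24e-09). MED24 fell with siE6, from 97.0, 100.2 and 97.1 CPM to 54.9, 56.0 and 54.1 CPM (-0.83, SE 0.04, adjusted p 8.37e-10). None of the treated libraries overlapped its controls in these 3 cases. MED24 was called lower in 4 of the 5 HEK293T knockdown comparisons and higher in 0. In each of them 28.6% to 38.1% of all genes were called lower, and repeated calls over all genes were not counted. MED16 with siE8 (25.5, 30.4 and 26.4 against 23.7, 25.7 and 21.9 CPM) overlapped, and its call (-0.21, adjusted p 0.0306) was lost without control replicate 2 or siE8 replicate 1 or 3 (adjusted p up to 0.156). Of the 5 tail genes, 1 rose and 4 fell with the ASO, 1 and 3 with the POLR3G siRNA, 0 and 3 with siE4, 2 and 1 with siE6, and 2 and 2 with siE8. Of the 4 subunits at the junction of head and tail (MED27, MED28, MED29 and MED30), 0 rose and 2 fell with the ASO, 4 and 0 with the POLR3G siRNA, 1 and 1 with siE4, 3 and 0 with siE6, and 4 and 0 with siE8. Beside both sets, 26.2% to 36.8% of all genes rose and 28.6% to 38.1% fell in these comparisons.

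MED26, the subunit of the kinase-free form, had the largest rise with the ASO. It went from 10.4, 10.2 and 10.3 CPM to 28.0, 25.4 and 28.8 CPM, a rise of 2.66-fold (log2 fold change 1.41, SE 0.06, adjusted p 2.12e-07). Every treated library was above every control library, while with the same agent MED12 fell. MED26 was called higher in 4 of the 5 HEK293T knockdown comparisons and lower in 0. In each of them 26.2% to 36.8% of all genes were called higher, and siE4, siE6 and siE8 share their controls. How many of all genes were called higher in 4 was not counted.

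The other Mediator genes are given here by their calls in the 5 HEK293T knockdown comparisons, with genes picked after their values were seen. In each comparison 26.2% to 36.8% of all genes were called higher and 28.6% to 38.1% lower. Repeated calls over all genes were not counted. MED6, in the head, was called higher in 4 and lower in 0, with log2 fold changes of 0.22 with the ASO, 0.68 with the POLR3G siRNA, 0.28 with siE6 and 0.19 with siE8. MED19, in the middle module, was also called higher in 4, at 0.88 with the POLR3G siRNA and 0.69 with siE6. MED31, in the same module, was called higher with siE4, siE6 and siE8 (0.43, 0.95 and 0.65). MED7, which pairs with MED21 and MED31 in the middle module, was called lower with the POLR3G siRNA (-0.50) and higher with siE6 (0.42). MED1, the middle subunit known as the contact of nuclear receptors, was called higher in 2 (0.19 with the ASO, 0.24 with siE4) and lower in 2 (-0.69 with the POLR3G siRNA, -0.12 with siE6, the last with adjusted p up to 0.132 over the alternatives). MED17, in the head, was called higher with the ASO, siE4 and siE6 (0.42, 0.49 and 0.66), with adjusted p over the alternatives of up to 0.938 for siE4 and 0.218 for siE6. In the tail, MED15 was called in all 5, higher in 2 and lower in 3, and MED23 was called higher with the POLR3G siRNA (0.26) and lower with the ASO (-0.26) and siE8 (-0.10, adjusted p up to 0.184). The genes at the junction of head and tail had their largest values with siRNAs. MED29 and MED30 were at 0.83 and 0.82 with the POLR3G siRNA, MED30 at 0.87 with siE8, and MED27 at 0.38 with the POLR3G siRNA and -0.37 with the ASO. MED28 was at 0.76 with the POLR3G siRNA, 0.55 with siE6 and 0.64 with siE8, where the calls of siE6 and siE8 had adjusted p of up to 0.585 and 0.36 over the alternatives.

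The ASO and the siRNA against POLR3G differed in their effect on 26 of 31 Mediator genes by the test of the difference between their changes (10 more positive with the ASO and 16 less; 33.8% and 33% of all genes, 66.8% in either direction). The 3 smallest adjusted p belonged to CCNC, MED14 and MED21, with differences of -1.65, -1.07 and -1.66 on the log2 scale. CCNC and MED21 rose with the siRNA, while with the ASO their log2 fold changes were 0.09 and -0.13. MED14, the scaffold, went from 174, 172 and 172 CPM to 284, 288 and 291 CPM with the siRNA and from 150.5, 148 and 148 CPM to 119.5, 124 and 117 CPM with the ASO. The agents differ in chemistry and were run with their own controls, so agent and experiment cannot be told apart.

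The control siRNA libraries stood apart for several of the genes that rose. This comparison was chosen after the values were seen. When all 30 HEK293T libraries were put on 1 scale, CCNC was at 66.3 to 74.8 CPM in the 6 control siRNA libraries of both doses, at 155 to 221 CPM in the 12 libraries with a targeting siRNA and at 119 to 139 CPM in the 12 libraries without siRNA. MED21 was at 26.2 to 28.4, 51.0 to 79.5 and 43.9 to 51.3 CPM, and MED4 at 28.7 to 36.0, 60.3 to 71.1 and 44.5 to 56.0 CPM. For CCNC and MED4 the levels without siRNA lay between the others, and for MED21 they met the lowest targeting siRNA library. CDK19 was at 22.8 to 25.4, 26.0 to 36.8 and 48.6 to 55.7 CPM, and MED28 at 104 to 112, 119.6 to 179.7 and 121 to 167 CPM. In CPM, all 6 control siRNA libraries were below all 24 others for 5 of the 31 genes, where 2% of all genes were, and for 0 genes they were above (2.3% of all genes). Against the scrambled ASO, the 200 nM control siRNA had log2 differences of -0.86 for CCNC, -1.16 for CDK19, -0.82 for MED21, -0.62 for MED28 and -0.60 for MED4. These values are not scaled to transcript length. In TPM, CDK19 spanned only 16.8 to 24.5 over the 12 HEK293T control libraries, with and without siRNA, and CCNC spanned 58.7 to 118. The CDK19 gap was thus smaller once scaled to transcript length. MED12, which fell with the POLR3G siRNA and siE4, was at 40.1 to 51.4 CPM with control siRNA. It was at 16.7 to 42.1 CPM with targeting siRNA and 8.24 to 37.3 CPM without siRNA. Its log2 difference was 0.44 for the 200 nM control siRNA against the scrambled ASO and 0.52 for the 25 nM control siRNA against eGFP. The control siRNAs came from experiments of their own, so the siRNA and the experiment cannot be told apart. A rise or fall against them is one against that control only. The 200 nM control siRNA differed from the scrambled ASO at 10 genes that were higher and 9 that were lower ( 30.1% and 27.1% of all genes, 57.2% together), and the 25 nM control siRNA from eGFP at 13 higher and 7 lower ( 32.2% and 27.1%, 59.3% together).

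**Figure D4:**
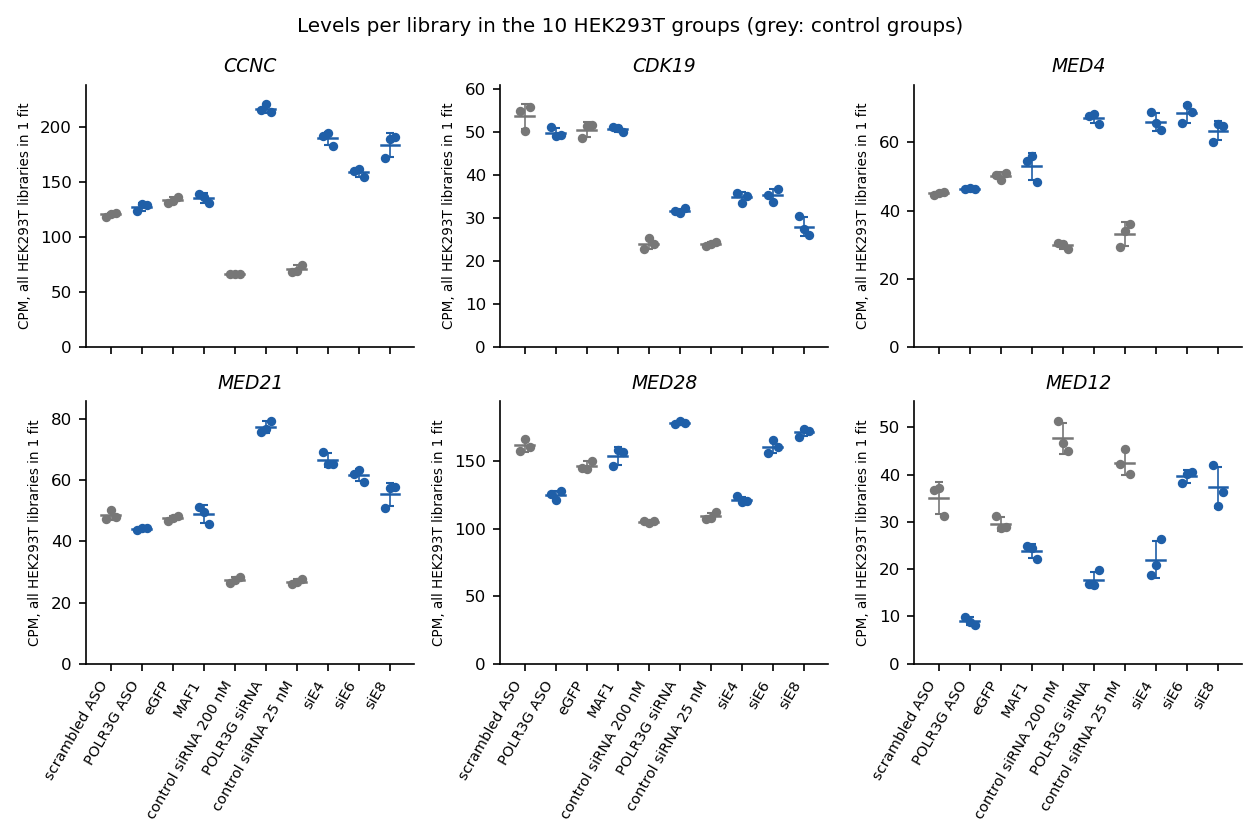
CPM of CCNC, CDK19, MED4, MED21, MED28 and MED12 in the 30 HEK293T libraries on 1 scale, by group; points are libraries, lines and bars the mean ± SD, grey the control groups. The control siRNA libraries of both doses lie lowest for CCNC, at 66.3 to 74.8 CPM, below both the targeting siRNAs and the libraries without siRNA.

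Within the POLR3GL experiment the 3 siRNAs differed from each other at many Mediator genes. siE4 differed from siE6 at 25 of 31 (8 higher, 17 lower with siE4; 32.2% and 32.6% of all genes, 64.8% together). It differed from siE8 at 26 (10 and 16; 30.5% and 32.4%, 63% together), and siE6 from siE8 at 17 (11 and 6; 32.1% and 32.1%, 64.2% together). MED29 was lower with siE4 than siE6 by a log2 difference of -0.90, MED15 by -0.70, and MED13 was higher by 0.75. MED13 and MED8 were higher with siE4 than siE8, by 0.79 and 0.60, and MED28 was lower by -0.49, a difference of -0.14 (adjusted p 0.349) with a length offset. MED24 was lower with siE6 than siE8 by -0.88, and MED17 and MED7 were higher by 0.56 and 0.48. The MED17 value rests on transcripts not annotated as protein-coding, since 9.02% of MED17 reads lay on protein-coding ones, and on those alone it was 0.16 (adjusted p 0.774).

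In THP-1, CHX changed the kinase module most through CDK19. It fell from 181, 178 and 174 CPM to 85.4, 80.8 and 82.6 CPM, 2.14-fold (log2 fold change -1.10, SE 0.03, adjusted p 4.87e-12), and its share of the summed CDK8 and CDK19 TPM went from 81.0% ± 0.5 to 67.8% ± 1.4 (SD, n = 3). MED13 rose from 141, 139 and 156 CPM to 257, 244 and 258 CPM (0.80), and MED12 from 20.03, 22.2 and 24.6 CPM to 37.4, 28.4 and 36.6 CPM (0.62, adjusted p 0.00291). MED13L rose from 266, 258 and 289 CPM to 327, 294 and 326 CPM (0.22). CDK19 thus fell while MED12, MED13 and MED13L of its module rose, and CDK8 was at 21.9, 21.0 and 21.4 CPM with DMSO and 21.5, 23.5 and 20.5 CPM with CHX (adjusted p 0.671). CCNC was at 136, 138 and 130.5 CPM with DMSO and 128, 126 and 129 CPM with CHX, a log2 fold change of -0.08 (adjusted p 0.025) that lost its call without CHX replicate 1, 2 or 3 or DMSO replicate 1 or 2 (adjusted p up to 0.113). Reads on CCNC-201 made 1.75% ± 0.733 of CCNC reads with DMSO, 6.20% ± 1.09 with CHX and 8.13% ± 1.92 with CHX and ML-60218 (SD, n = 3).

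Core genes also moved with CHX. MED26 rose from 15.8, 14.9 and 14.4 CPM to 27.2, 27.5 and 26.8 CPM (log2 fold change 0.86), and MED29 from 60.4, 63.7 and 60.4 CPM to 112, 106 and 114 CPM (0.85). MED28 fell from 221, 226 and 232 CPM to 153, 156 and 152 CPM (-0.56), and MED14 from 66.8, 68.0 and 70.2 CPM to 61.3, 58.8 and 62.7 CPM (-0.17). Rises and falls thus both reached the subunits at the junction of head and tail, of which 3 rose and 1 fell. Of the 7 kinase module genes 3 rose and 2 fell, and of the 24 core genes 14 rose and 5 fell, where 33.5% of all genes rose and 32.5% fell. Within the core, 4 of 5 head genes rose and 0 fell, 4 of 8 middle genes rose and 2 fell, and 2 of 5 tail genes rose and 1 fell.

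**Figure D5:**
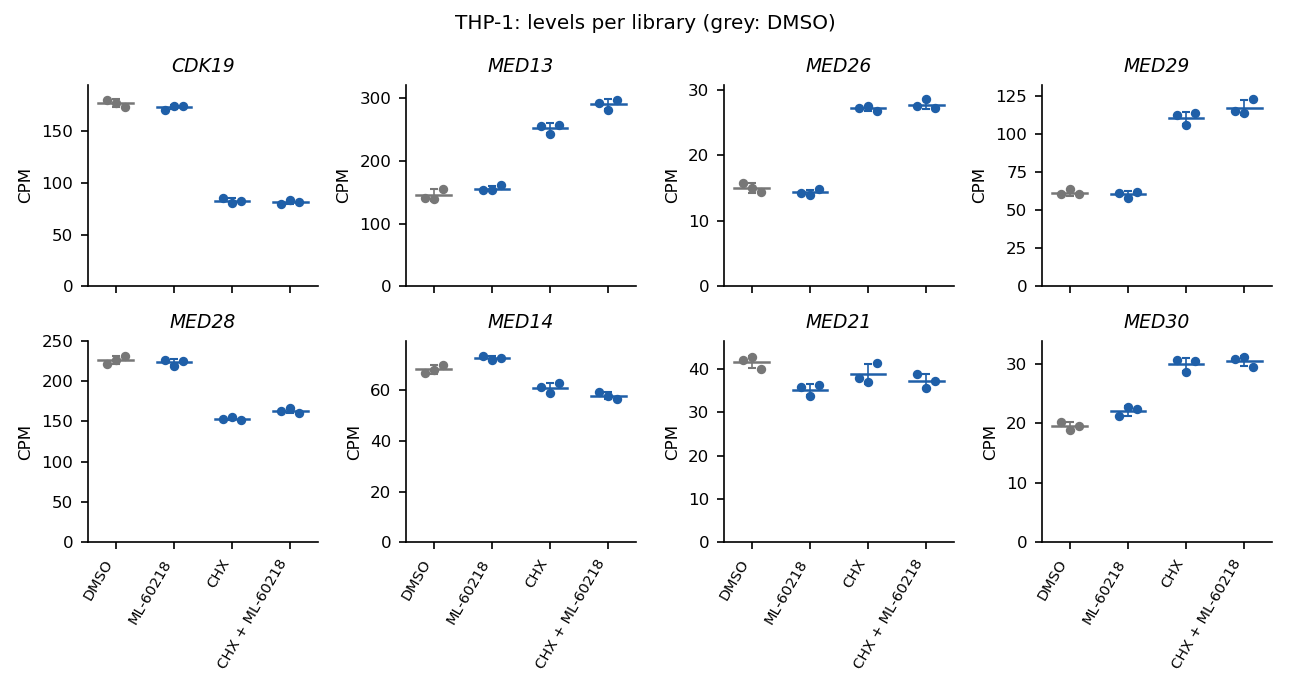
CPM of 8 Mediator genes in every library of the DMSO, ML-60218, CHX and CHX with ML-60218 groups of THP-1; points are libraries, lines and bars the mean ± SD. CDK19 is at 174 to 181 CPM with DMSO and lower in every CHX library, with or without ML-60218.

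ML-60218 moved single genes. MED21 fell from 42.0, 42.9 and 40.1 CPM to 35.8, 33.8 and 36.2 CPM (log2 fold change -0.24, SE 0.05, adjusted p 0.00543). MED30 was at 20.2, 18.9 and 19.5 CPM with DMSO and 21.1, 22.7 and 22.3 CPM with ML-60218 (0.18, adjusted p 0.0208), a call lost without DMSO replicate 2 or ML-60218 replicate 2 or 3 (adjusted p up to 0.0864). Both shifts were small beside the largest of the knockdowns, which were made in HEK293T over 48 h. Some called knockdown shifts were as small. Under CHX, MED13 rose from 257, 244 and 258 CPM to 292, 282 and 297 CPM (0.20, adjusted p 0.00647), and MED28 from 153, 156 and 152 CPM to 163, 167 and 160.3 CPM (0.09, adjusted p 0.034), a call lost without CHX replicate 1 or 3 or CHX with ML-60218 replicate 1 or 2 (adjusted p up to 0.09). Whether the effect of ML-60218 differed with CHX was tested as an interaction: edgeR called 0 of 31 genes (6.56% of all genes, 2.86% higher and 3.7% lower), with 6 at an unadjusted p under 0.05 and 0 by DESeq2. The smallest adjusted p were 0.0519 for MED14 (-0.16), 0.07 for MED19 (0.30) and 0.112 for MED28 (0.11).

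Other parts of the polymerase II machinery were counted in the same comparisons. Of 12 polymerase II subunit genes, 4 rose and 4 fell with the ASO, 10 and 1 with the POLR3G siRNA (median log2 fold change 0.44), 5 and 4 with siE4, 11 and 0 with siE6 (0.37), 8 and 0 with siE8 (0.24), and 1 and 6 with CHX (-0.10). Of 29 general transcription factor genes, 8 rose and 10 fell with the ASO, 17 and 6 with the POLR3G siRNA, 11 and 8 with siE4, 11 and 9 with siE6, 10 and 5 with siE8, and 17 and 3 with CHX. Of all genes, 33.5% rose and 32.5% fell with CHX, and 36.8% rose and 38.1% fell with the POLR3G siRNA. Of 16 genes of the elongation factor P-TEFb and the super elongation complex, 8 rose and 3 fell with the ASO, 9 and 3 with the POLR3G siRNA, 6 and 5 with siE4, 6 and 6 with siE6, 9 and 4 with siE8, and 11 and 3 with CHX. Of 7 genes of cohesin and its loader, which cooperate with Mediator at enhancers, 2 rose and 4 fell with the ASO, 4 and 1 with the POLR3G siRNA, 5 and 0 with siE4, 3 and 2 with siE6, 5 and 1 with siE8, and 5 and 1 with CHX. With the ASO, siE4, siE6 and siE8, 34.4%, 26.2%, 31.2% and 29.1% of all genes rose. In the same order, 34.1%, 28.7%, 31.8% and 28.6% fell, and 68.5%, 54.9%, 63% and 57.7% were called in either direction. ML-60218 raised 1 and lowered 1 of the polymerase II subunits, where 8.48% of all genes rose and 7.05% fell. MAF1 overexpression called none of the genes of the 4 lists by edgeR, where 0.0386% of all genes were called.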

How the data were processed

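For the RNA-seq libraries of HEK293T and THP-1, the submitters' processing notes name bcl2fastq 2.20, Trim Galore, Salmon, DESeq2 and the build hg38, with no order or settings. The deposited tables give estimated counts and TPM per transcript; the labels describe a stranded kit, and the strand setting of the counting is not given in the sources used here. Of 194142 transcripts, 158359 (81.6%, holding 91.1% of reads) matched GENCODE release 29 and were summed per gene. Estimated counts were rounded, and each experiment was fitted with edgeR 4.0.16 in R 4.3.3 (TMM scaling, filter on low counts, quasi-likelihood test, Benjamini-Hochberg adjustment over all genes tested), checked on simulated data. DESeq2 1.42.0 was an alternative, with other filters, scalings, transcript sets and thresholds, a replicate block and leaving out each library. CPM values are TMM-scaled within an experiment. Baselines used the deposited TPM. The Mediator genes and the other gene lists were chosen with earlier results of these data known. In each comparison the 3 largest rises and falls among called genes averaging 5 CPM or more, and the kinase module genes, were named with full values; in tests of a difference, the 3 smallest adjusted p.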

Additional observations from a re-analysis of the deposited data

Results flagged for a closer look

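The POLR3G ASO and siRNA changes, each against its own control, differed at 26 of 31 Mediator genes and at 66.8% of all genes. This was by edgeR's test of the difference between the changes, with Benjamini-Hochberg adjustment. Agent and experiment cannot be told apart here. The 3 genes with the smallest adjusted p follow. For CCNC the log2 fold change with the ASO was lower by -1.65 (adjusted p 4.67e-13). For MED14 the difference was -1.07, and for MED21 it was -1.66. CCNC and MED21 are among the genes whose control siRNA libraries lay below all other HEK293T libraries.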

How the results depend on the processing

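Leaving out each library in turn gave counts of called Mediator genes of 20 to 23 for the ASO, 24 to 26 for the POLR3G siRNA, 22 to 24 for siE4, 20 to 24 for siE6, 15 to 19 for siE8, 22 to 24 for CHX, 0 for MAF1, 1 to 5 for ML-60218, 1 to 4 for ML-60218 under CHX and 0 to 1 for the interaction. For ML-60218 the count was 1 at an adjusted p under 0.01, 5 without DMSO replicate 3, and 1 without DMSO replicate 2, ML replicate 2 or ML replicate 3. For ML-60218 under CHX it was 1 at an adjusted p under 0.01, with no filter on low counts, with protein-coding transcripts only and with only the 2 groups in the fit, 1 without CHX replicate 1 or 3, and 4 without CHX with ML replicate 1. The interaction count was 1 with a minimum mean of 5 CPM and without CHX replicate 2, CHX with ML replicate 1 or DMSO replicate 3, and MAF1 was 1 by DESeq2. The kinase module minus core difference became -0.010 by summed CPM, -0.30 by the median and -0.18 on log2(TPM + 1) for the ASO; 0.18 and 0.36 (summed, median) for the POLR3G siRNA; 0.39 and 0.32 for siE4; -0.035, -0.74, -0.23 (protein-coding only) and 0.040 (TPM) for siE6; 0.055 (summed) for siE8; 0.030 (median) for MAF1 and -0.89 (median) for CHX. The log2 fold change of CDK19 reversed with a length offset, to -0.058 for the POLR3G siRNA, -0.33 for siE4 and -0.33 for siE8, and with protein-coding transcripts only to -0.13 for siE6; the cause was not tested. Of 72 named values, 16 changed call or sign. With no filter on low counts the median over all genes moved to 0.16 for the ASO and 0.31 where the ASO and siRNA changes were subtracted. With a replicate block the counts were 22 for the ASO, 25 for the POLR3G siRNA and 23, 22 and 18 for siE4, siE6 and siE8. They were 3 for ML-60218 and 24 for CHX. Same-numbered libraries correlated between -0.14 and 0.14 in their deviations. In the POLR3GL experiment other-numbered libraries correlated between -0.12 and 0.13. No strong pairing by number was thus seen, and a weak one would not show in so few libraries. The block ended the calls of MED13L with the POLR3G siRNA (adjusted p 0.0648) and MED28 under CHX (adjusted p 0.0534).

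The 3 libraries in each group limit precision, and genes at few CPM, such as MED12L in THP-1, enter the kinase module mean with the same weight as the others.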
